A study of Mus musculus with 6 samples.

Results

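The vacuolar H+-ATPase (V-ATPase) subunits described here form 5 paralog pairs, each made of a subunit that is characteristic of kidney intercalated cells and the form of the same subunit that most cells use. The 10 genes were listed by symbol, with earlier results of these data known, and all of them were found among the 55367 gene symbols of each library. The intercalated-cell forms were *Atp6v1b1*, *Atp6v0a4*, *Atp6v0d2*, *Atp6v1g3* and *Atp6v1c2*, and their ubiquitous paralogs were *Atp6v1b2*, *Atp6v0a1*, *Atp6v0d1*, *Atp6v1g1* and *Atp6v1c1*.

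RNA-seq was performed on polyA RNA of kidney cells that were enriched from digested mouse kidneys with beads carrying DBA (Dolichos biflorus agglutinin), a lectin that binds collecting duct epithelium. WT mice were *Pkd1*+/+ and received saline. ADPKD mice were *Pkd1*-/-, from male *Pkd1* fl/fl;Cre/Esr1+ mice in which tamoxifen induces Cre activity, and also received saline. ADPKD+MMPP mice were of the same *Pkd1*-/- genotype and received intravenous MMPP, melanin-like nanoparticles that chelate manganese. All 6 libraries carried the label Day115, with 2 libraries per group. The sources used here do not state the promoter or cell type that drives Cre, whether the WT mice carried Cre or were given tamoxifen, or how many animals made up a library. Nothing states that the libraries of a group came from separate animals, so P values measure only the spread between these libraries, which may be technical.

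The V-ATPase is a rotary pump in which a cytosolic V1 sector hydrolyses ATP and a membrane-bound V0 sector moves protons. In nearly every cell it acidifies lysosomes and endosomes. Intercalated cells of the collecting duct also place it in the plasma membrane, where it secretes acid or base equivalents, and they use their own forms of several subunits to do so. Inherited loss of the B1 or the a4 subunit causes distal renal tubular acidosis, and the forkhead factor FOXI1 is required for the expression of both in intercalated cells.

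The start regions of 3 genes are shown because they represent the 2 kinds of paralog and the motif found in each. RefSeq promoters on GRCm38.p6 were at hand for 6 of the 10 genes, with *Atp6v1b2*, *Atp6v0d2*, *Atp6v1g1* and *Atp6v1c1* missing, and each window ran from 250 bases before the start to 50 bases after it. *Atp6v1b1* (chr6:83742767-83743026, plus strand) and *Atp6v1g3* (chr1:138273488-138273747, plus strand) are intercalated-cell forms, and *Atp6v0d1* (chr8:105566055-105566314, minus strand) is a ubiquitous form. The lines give 260 bases, up to 10 bases after the start, with motif matches in capitals.
Atp6v1b1: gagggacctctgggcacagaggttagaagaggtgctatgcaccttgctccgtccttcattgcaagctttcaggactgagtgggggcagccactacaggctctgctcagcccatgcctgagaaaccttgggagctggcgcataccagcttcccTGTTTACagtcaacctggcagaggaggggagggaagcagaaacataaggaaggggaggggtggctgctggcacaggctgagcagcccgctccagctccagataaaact
Atp6v1g3: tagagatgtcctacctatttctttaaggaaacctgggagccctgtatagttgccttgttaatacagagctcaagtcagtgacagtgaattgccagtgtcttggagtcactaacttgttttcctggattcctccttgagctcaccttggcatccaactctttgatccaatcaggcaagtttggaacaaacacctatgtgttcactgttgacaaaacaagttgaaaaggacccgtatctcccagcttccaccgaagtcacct
Atp6v0d1: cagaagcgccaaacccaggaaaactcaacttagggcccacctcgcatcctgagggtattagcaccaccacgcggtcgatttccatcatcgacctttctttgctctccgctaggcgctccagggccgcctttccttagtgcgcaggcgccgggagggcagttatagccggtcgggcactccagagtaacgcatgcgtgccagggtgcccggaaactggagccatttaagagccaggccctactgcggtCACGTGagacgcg
The motifs were searched on both strands. The forkhead core GTAAACA, held by 3.65% of 32817 promoter windows of this length, occurred in *Atp6v1b1* alone among the 6 genes, on the opposite strand (TGTTTAC), starting 98 bases before the start. The E-box CACGTG, held by 7.15% of the windows, was found in *Atp6v0d1* alone, starting 3 bases before the start. The core TGACG of the cAMP response element (CRE), held by 20.8% of the windows, occurred 2 times in *Atp6v0d1*, at 14 and 21 bases after the start and thus beyond the printed stretch. The CLEAR element (0.326% of windows), which contains the E-box, and the full CRE TGACGTCA (1.79% of windows), which contains the CRE core, had no match in the 6 windows. These matches describe letters and are not binding sites, and no motif was found in the windows of *Atp6v0a4*, *Atp6v0a1*, *Atp6v1g3* and *Atp6v1c2*.

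FPKM, the measure deposited for every gene, divides its fragments by the length of the gene and the size of the library. The product of low FPKM and exon length came in whole reads, and the size of 1 read gave depths of 30.6 to 33.1 M reads in the WT and ADPKD libraries and 10.9 to 11.8 M reads in the ADPKD+MMPP libraries. Odd read numbers made up 35.2% to 37.2% of these low values in WT and ADPKD but 7.18% to 7.64% in ADPKD+MMPP, so the treatment and the way the ADPKD+MMPP files were made cannot be told apart. *Pkd1*, the targeted gene, had 17.7 and 17.2 FPKM in WT, 7.64 and 8.91 in ADPKD and 4.34 and 3.99 in ADPKD+MMPP. The test was limma on log2(FPKM + 1), a scale on which low genes appear to change less than they do, and a call required a change of 1.5-fold or more with an unadjusted P under 0.05. All 10 subunits were among the 14862 genes that passed the filter of at least 1 FPKM in at least 2 libraries. The labelled epithelium was present by its markers: summed FPKM of 8 principal cell genes was 2079 and 2776 in WT, 2482 and 942 in ADPKD, and 5417 and 5441 in ADPKD+MMPP. Most of each sum was *Aqp2*, at 1267 and 1776 FPKM in WT, 1392 and 677 in ADPKD, and 3555 and 3499 in ADPKD+MMPP. *Avpr2* did not pass the filter. Of the 7 tested genes 4 rose and 2 fell from ADPKD to ADPKD+MMPP, beside 27.9% and 43.0% of all tested genes. The 12 markers of proximal tubule summed to 221 to 498 FPKM in WT and ADPKD and to 1777 and 1839 FPKM in ADPKD+MMPP. From ADPKD to ADPKD+MMPP 9 of them rose and none fell, beside the same shares of all tested genes. Most of each sum in WT and ADPKD was *Aqp1*, at 343 and 234 FPKM in WT, 255 and 181 in ADPKD, and 687 and 723 in ADPKD+MMPP.

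In WT cells the intercalated-cell forms of subunits B, a and C stood above their ubiquitous paralogs, and those of d and G below. *Atp6v1g1* had the highest mean, at 61.9 ± 6.68 FPKM (SD, n = 2), followed by *Atp6v1b1* at 59.7 ± 2.47 FPKM (SD, n = 2), and their libraries overlapped. *Atp6v0d1* and *Atp6v1g3* came next and also overlapped, then *Atp6v1b2*, *Atp6v0a4* and *Atp6v1c2*, of which each overlapped the next. *Atp6v0d2*, *Atp6v0a1* and *Atp6v1c1* followed without overlap, down to 8.52 ± 1.12 FPKM (SD, n = 2) for *Atp6v1c1*. In ADPKD the order became *Atp6v1g1*, *Atp6v1b2*, *Atp6v0d1*, *Atp6v0a4*, *Atp6v1b1*, *Atp6v1c1*, *Atp6v0a1*, *Atp6v0d2*, *Atp6v1g3* and *Atp6v1c2*. Neighbours overlapped there except between *Atp6v1g1* and *Atp6v1b2*, *Atp6v0d1* and *Atp6v0a4*, *Atp6v1c1* and *Atp6v0a1*, and *Atp6v0a1* and *Atp6v0d2*. In ADPKD+MMPP the order was *Atp6v1g1*, *Atp6v0d1*, *Atp6v1b1*, *Atp6v1b2*, *Atp6v1g3*, *Atp6v0d2*, *Atp6v1c1*, *Atp6v0a1*, *Atp6v0a4* and *Atp6v1c2*, and of these neighbours only *Atp6v1b1* and *Atp6v1b2* overlapped.

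**Figure D1:**
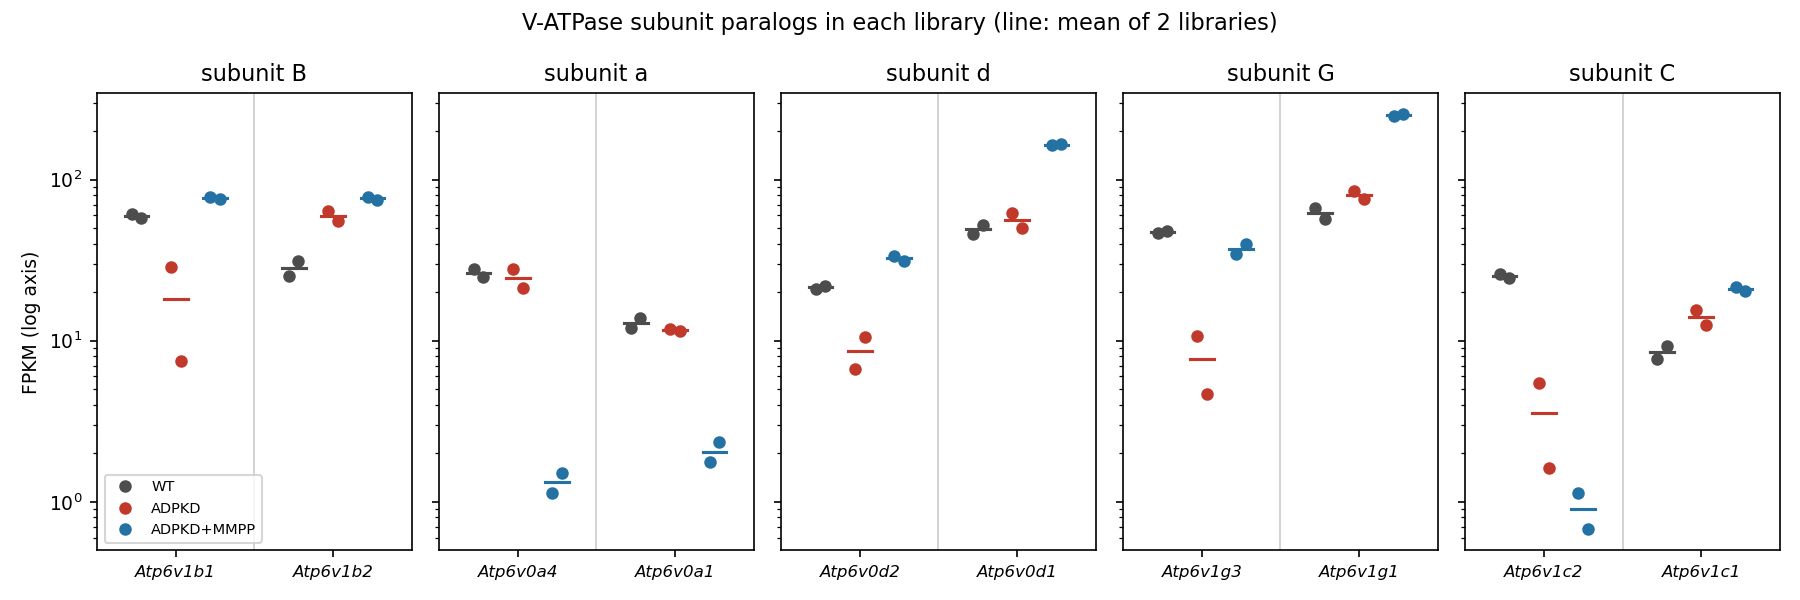
FPKM (log axis) of the 10 subunits in each library, 1 panel per paralog pair, with points for libraries and lines for the mean of 2 libraries. *Atp6v1b1*, *Atp6v0d2*, *Atp6v1g3* and *Atp6v1c2* sit lower in ADPKD than in WT, and *Atp6v0a4*, *Atp6v0a1* and *Atp6v1c2* lie below 3 FPKM in ADPKD+MMPP.

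The first comparison asked how the subunits of *Pkd1*-null cells differ from those of WT cells. In ADPKD, 4 of the 5 intercalated-cell forms fell, by 2.49-fold to 7.11-fold in mean FPKM, while none rose. Of the ubiquitous paralogs, 2 rose, *Atp6v1b2* by 2.12-fold and *Atp6v1c1* by 1.65-fold, and none fell. Over all tested genes 26.7% were called, 14.2% as higher and 12.5% as lower. Over the 5 genes of each kind, the median log2 fold change was -1.93 for the intercalated-cell forms and 0.37 for the ubiquitous forms, beside 0.03 over all tested genes. WT and ADPKD libraries were fully separate for 4 of 5 intercalated-cell forms and 4 of 5 ubiquitous forms, against 67.0% of all tested genes. In bulk samples, fewer intercalated cells and less RNA per cell cannot be told apart.

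*Atp6v1b1* (chr6:83742990-83758855, plus strand; GENCODE vM21) encodes the B1 subunit of the V1 head, which shares the nucleotide-binding sites with subunit A. It had 61.5 and 58.0 FPKM in WT, 28.7 and 7.53 FPKM in ADPKD, and 78.3 and 76.2 FPKM in ADPKD+MMPP. Both ADPKD libraries were below both WT libraries, but on the log2 scale they differed almost as much from each other as from WT. It fell by 1.93 on the log2 scale (SE 0.55, adjusted p = 0.0503 in limma), a call that rests on the unadjusted P. The call was lost without WT replicate 1 (log2 fold change -1.89) and without WT replicate 2 (-1.97), and the log2 fold change was -1.03 without ADPKD replicate 2 and -2.83 without ADPKD replicate 1. Its paralog *Atp6v1b2* (chr8:69088646-69113711, plus strand), the B2 subunit of most cells, had 25.2 and 31.0 FPKM in WT, 64.1 and 55.1 FPKM in ADPKD, and 77.9 and 75.2 FPKM in ADPKD+MMPP. Every ADPKD library was above every WT library, with a log2 fold change of 1.06 (SE 0.15, adjusted p = 0.00757 in limma).

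The G subunits belong to the peripheral stalks that hold the V1 head in place. *Atp6v1g3* (chr1:138273738-138289462, plus strand), the kidney form, had 46.5 and 48.3 FPKM in WT, 10.7 and 4.64 FPKM in ADPKD, and 34.6 and 39.9 FPKM in ADPKD+MMPP. It was lowest in the ADPKD libraries, none of which reached another group, and fell by 2.57 on the log2 scale (SE 0.33, adjusted p = 0.00601 in limma). *Atp6v1g1* (chr4:63544772-63550750, plus strand), the common form, had 66.6 and 57.2 FPKM in WT, 84.8 and 75.5 FPKM in ADPKD, and 248 and 255 FPKM in ADPKD+MMPP. The ADPKD libraries were above the WT libraries, but the log2 fold change of 0.37 (SE 0.14, adjusted p = 0.0981 in limma) was under the fold threshold.

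Subunit C joins the stalks to V0 and is released when V1 and V0 come apart. *Atp6v1c2* (chr12:17284721-17329359, minus strand), the form of kidney and lung, had 25.8 and 24.6 FPKM in WT, 5.47 and 1.62 FPKM in ADPKD, and 1.13 and 0.675 FPKM in ADPKD+MMPP. The 3 groups did not overlap, and the gene fell from WT to ADPKD by 2.67 on the log2 scale (SE 0.41, adjusted p = 0.00939 in limma). This log2 fold change was -2.02 without ADPKD replicate 2 and -3.32 without ADPKD replicate 1. *Atp6v1c1* (chr15:38661933-38692446, plus strand), the common form, had 7.73 and 9.31 FPKM in WT, 15.6 and 12.5 FPKM in ADPKD, and 21.6 and 20.3 FPKM in ADPKD+MMPP. Its groups did not overlap either, and it rose from WT to ADPKD by 0.66 on the log2 scale (SE 0.16, adjusted p = 0.0318 in limma). The change was under the fold threshold without WT replicate 1 (0.54), without ADPKD replicate 1 (0.51) and with libraries scaled to a common sum (0.58).

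The d subunits sit on the V0 ring at the foot of the central shaft. *Atp6v0d2* (chr4:19876841-19922605, minus strand), the form of kidney and osteoclasts, had 21.0 and 21.9 FPKM in WT, 6.65 and 10.6 FPKM in ADPKD, and 33.6 and 31.3 FPKM in ADPKD+MMPP. The ADPKD libraries were the lowest and the ADPKD+MMPP libraries the highest, and the gene fell from WT to ADPKD by 1.25 on the log2 scale (SE 0.21, adjusted p = 0.0116 in limma). Unlike the other falling forms, it was lower in ADPKD replicate 1 than in ADPKD replicate 2. *Atp6v0d1* (chr8:105524465-105566047, minus strand), the common form, had 46.2 and 52.3 FPKM in WT, 61.9 and 50.4 FPKM in ADPKD, and 164 and 166 FPKM in ADPKD+MMPP. WT and ADPKD overlapped, with a log2 fold change of 0.18 (SE 0.15, adjusted p = 0.403 in limma).

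The a subunits form the path by which protons leave the V0 ring. *Atp6v0a4* (chr6:38048483-38124586, minus strand), the form mutated in renal tubular acidosis, had 27.8 and 25.0 FPKM in WT, 27.8 and 21.4 FPKM in ADPKD, and 1.14 and 1.51 FPKM in ADPKD+MMPP. It was thus the one intercalated-cell form whose WT and ADPKD libraries overlapped, with a log2 fold change of -0.11 (SE 0.17, adjusted p = 0.674 in limma). Of its exon bases, 6.45% are also exon bases of *D630045J12Rik* or *Tmem213*. Among the other members only *Atp6v1c2* shares exon bases with another gene, 2.30% of them with *Pdia6*. Strand use in the counting was not given in the sources used here. *Atp6v0a1* (chr11:101009452-101063719, plus strand), the common form, had 12.05 and 13.8 FPKM in WT, 11.8 and 11.5 FPKM in ADPKD, and 1.76 and 2.35 FPKM in ADPKD+MMPP. Its ADPKD libraries were just below its WT libraries, with a log2 fold change of -0.14 (SE 0.15, adjusted p = 0.530 in limma), so neither a subunit was called between WT and ADPKD.

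Beside the fall of the intercalated-cell forms, other markers of intercalated cells were lower in ADPKD. Of 12 such markers, 10 fell and none rose, beside 12.5% and 14.2% of all tested genes, with a median log2 fold change of -2.12. *Foxi1* had 9.23 and 7.55 FPKM in WT and 2.14 and 1.35 FPKM in ADPKD, and its log2 fold change was -1.78 (SE 0.18, adjusted p = 0.00380 in limma). The anion exchanger genes *Slc4a1* of acid-secreting cells and *Slc26a4* of base-secreting cells fell as well. *Slc4a1* went from 20.6 and 14.9 FPKM in WT to 3.02 and 0.0128 FPKM in ADPKD, and *Slc26a4* from 83.6 and 109 FPKM to 12.4 and 2.15 FPKM. The 2 markers that were not called were *Kit* and *Rhcg*. Summed over the 12 markers, FPKM was 558 and 563 in WT, 279 and 109 in ADPKD, and 566 and 590 in ADPKD+MMPP. *Rhcg* alone had 155 and 171 FPKM in WT, 172 and 42.3 in ADPKD, and 420 and 439 in ADPKD+MMPP, the largest part of the last sums. Against WT, 1 of the 12 was called higher and 5 lower in ADPKD+MMPP, beside 30.1% and 43.8% of all tested genes. The sum over the 5 intercalated-cell subunits was 183 and 178 in WT, 79.3 and 45.8 in ADPKD, and 149 and 150 in ADPKD+MMPP. ADPKD replicate 2 was the lowest of the 6 libraries in both sums, and also in the summed markers of principal cells, proximal tubule, and thick limb and distal convoluted tubule. Without this library, 4 of the 5 intercalated-cell forms were still called.

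**Figure D2:**
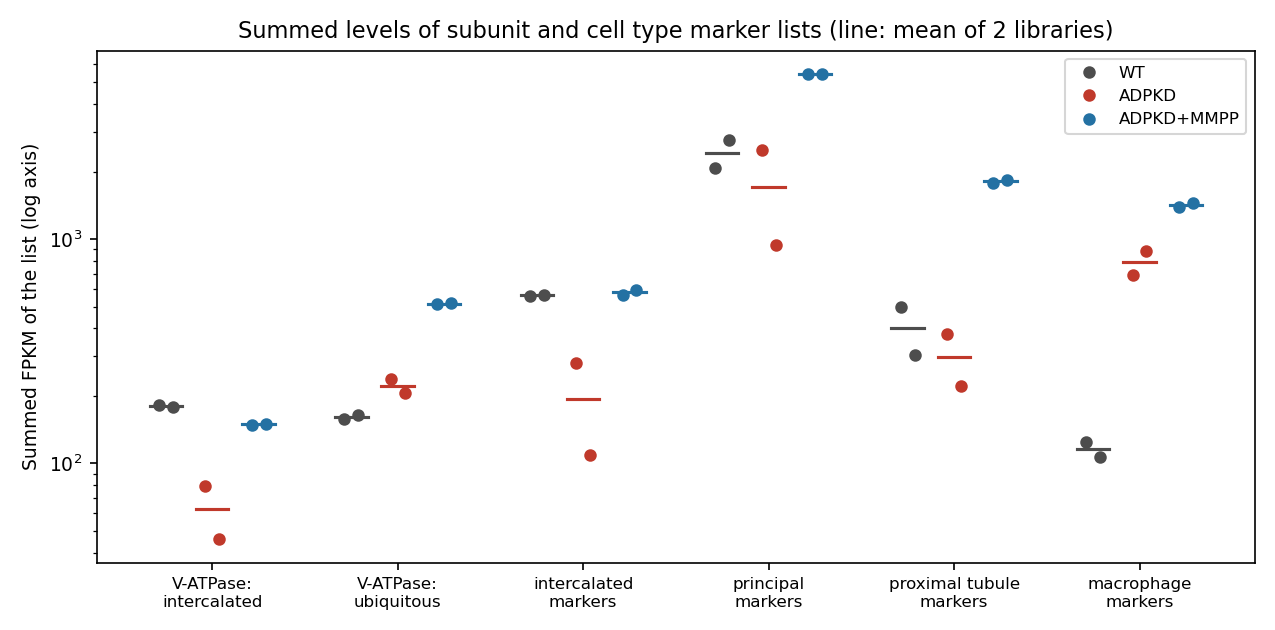
Summed FPKM (log axis) of the intercalated-cell subunits, the ubiquitous paralogs and 4 lists of cell type markers, with points for libraries and lines for the mean of 2 libraries. The intercalated-cell subunits (45.8 to 79.3 FPKM) and the intercalated markers (109 to 279 FPKM) are lowest in ADPKD, while the ubiquitous paralogs and the macrophage markers are highest in ADPKD+MMPP.

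Markers of other cells also moved with the groups. Of 6 genes of the thick limb and distal convoluted tubule, 3 fell in ADPKD and none rose, beside 12.5% and 14.2% of all tested genes. Their median log2 fold change was -1.50. Their summed FPKM was 1301 and 517 in WT, 631 and 191 in ADPKD, and 202 and 201 in ADPKD+MMPP. *Umod* alone had 987 and 319 FPKM in WT, 498 and 152 in ADPKD, and 80.3 and 79.3 in ADPKD+MMPP. It was not called from WT to ADPKD. The sodium chloride cotransporter gene *Slc12a3* had 80.6 and 70.2 FPKM in WT, 35.6 and 3.14 FPKM in ADPKD, and 65.8 and 67.4 FPKM in ADPKD+MMPP. Levels were thus lower in ADPKD outside intercalated-cell genes as well. All 12 macrophage markers rose in ADPKD, beside 14.2% of all tested genes. Their summed FPKM was 125 and 107 in WT, 688 and 885 in ADPKD, and 1393 and 1447 in ADPKD+MMPP. Among them, *Cd68* had 23.4 and 26.0 FPKM in WT, 45.4 and 52.5 FPKM in ADPKD, and 22.8 and 27.3 FPKM in ADPKD+MMPP. From ADPKD to ADPKD+MMPP 4 of the 12 rose and 6 fell, beside 27.9% and 43.0% of all tested genes. *C1qa* went from 115.2 and 141 FPKM to 241 and 271 FPKM, but *Csf1r* from 17.0 and 25.6 FPKM to 0.381 and 0.190 FPKM. *Itgam* is listed at 0 for each ADPKD+MMPP library. *Itgam* and *Ptprc* reached 1 FPKM in the ADPKD libraries only and passed the filter through them. Their directions in both comparisons thus followed from the filter. The sum over the ubiquitous paralogs was 158 and 164 FPKM in WT, 238 and 205 FPKM in ADPKD, and 512 and 518 FPKM in ADPKD+MMPP. The 4 macrophage markers that rose with MMPP had 88.7% to 100% of their exon bases in a single annotated transcript, and the 6 that fell had 2.996% to 56.2%, a property that moved with this comparison over all genes. The macrophage sum and the ubiquitous sum were in the same order of groups, and the part of these cells in the levels of the ubiquitous paralogs was not tested. Of 4 osteoclast genes, which were counted because osteoclasts also use *Atp6v0d2*, *Acp5* and *Ctsk* passed the filter and both rose in ADPKD, whereas *Ocstamp* and *Dcstamp* were at or below 0.382 FPKM in all 6 libraries.

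The share of each pair taken by the intercalated-cell form was then computed within each library, which does not depend on how the library was scaled. For subunit B, *Atp6v1b1* made up 70.9% and 65.1% of the summed FPKM of the pair in WT, 30.9% and 12.01% in ADPKD, and 50.1% and 50.3% in ADPKD+MMPP. For subunit C, *Atp6v1c2* made up 76.95% and 72.5% in WT, 26.0% and 11.5% in ADPKD, and 4.98% and 3.22% in ADPKD+MMPP. Both pairs were mostly of the intercalated-cell form in WT and mostly of the ubiquitous form in ADPKD. For subunit G, *Atp6v1g3* made up 41.1% and 45.8% in WT, 11.2% and 5.79% in ADPKD, and 12.3% and 13.6% in ADPKD+MMPP. For subunit d, *Atp6v0d2* made up 31.2% and 29.5% in WT, 9.70% and 17.4% in ADPKD, and 17.0% and 15.9% in ADPKD+MMPP. These pairs were mostly of the ubiquitous form in every library. For subunit a, *Atp6v0a4* made up 69.8% and 64.5% in WT, 70.2% and 65.1% in ADPKD, and 39.4% and 39.2% in ADPKD+MMPP, and WT and ADPKD overlapped.

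The log2 ratio of the intercalated-cell form to its paralog was taken with 1 FPKM added to each form. Unlike the share, this ratio depends on scaling, and its changes at low levels appear smaller than they are. From WT to ADPKD it changed by -2.99 (SE 0.82) for B, by -3.33 (SE 0.53) for C, by -2.94 (SE 0.46) for G and by -1.43 (SE 0.45) for d. In these pairs each WT library was above each ADPKD library, and the exact two-sided permutation test gave p = 0.333 for each, the smallest that 2 libraries against 2 allow. The a pair changed by 0.03 (SE 0.23), with an exact permutation p of 0.667. The median over the 5 pairs was -2.94. The summed FPKM of the C pair was 33.7 ± 0.262 in WT and 17.6 ± 4.87 in ADPKD (SD, n = 2), so *Atp6v1c1* did not make up in FPKM for what *Atp6v1c2* had lost. For the B pair the sums were 87.8 ± 1.65 in WT and 77.7 ± 21.3 in ADPKD (SD, n = 2), a difference within the spread of the ADPKD libraries.

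**Figure D3:**
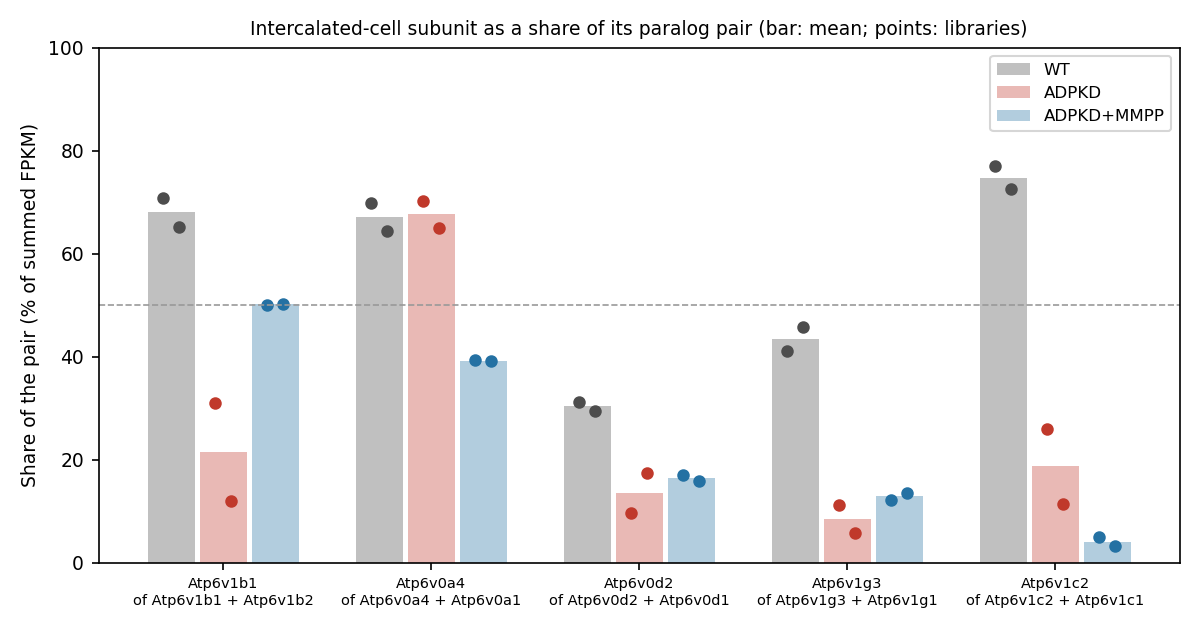
Share of the summed FPKM of each paralog pair taken by the intercalated-cell form (percent), with bars for the group mean, points for the 2 libraries and a dashed line at 50%. *Atp6v1b1* and *Atp6v1c2* pass from above this line in WT to below it in ADPKD, while *Atp6v0a4* does so only in ADPKD+MMPP, where its libraries are at 39.4% and 39.2%.

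The second comparison asked what MMPP treatment changed in *Pkd1*-null cells. Compared with ADPKD, the ADPKD+MMPP libraries had higher *Atp6v1b1*, *Atp6v1g3* and *Atp6v0d2*, by 4.27-fold, 4.87-fold and 3.76-fold in mean FPKM. *Atp6v0a4* and *Atp6v1c2* were lower, by 18.5-fold and 3.93-fold. Of the ubiquitous forms, *Atp6v1g1* rose 3.13-fold and *Atp6v0d1* 2.93-fold, and *Atp6v0a1* fell 5.67-fold. All 5 intercalated-cell forms and 3 of 5 ubiquitous forms were thus called, but so were 70.9% of all tested genes, 27.9% as higher and 43.0% as lower. The groups did not overlap for any of the 10 subunits, beside 87.8% of all tested genes. Median log2 fold changes were 1.83 over the intercalated-cell forms and 0.55 over the ubiquitous forms, beside -0.36 over all tested genes. That all-gene median was -0.55 with libraries scaled to a common sum, -0.15 by median of ratios and 0.10 after quantile normalization. Of the called genes 39.3% were higher with FPKM as deposited, but 54.0% after quantile normalization and 58.0% after centring by transcript overlap.

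The log2 fold change was 2.23 (SE 0.33, adjusted p = 0.00152 in limma) for *Atp6v1g3* and 1.83 (SE 0.21, adjusted p = 0.000533 in limma) for *Atp6v0d2*. For *Atp6v1b1* it was 2.30 (SE 0.55, adjusted p = 0.00996 in limma), but 1.40 without ADPKD replicate 2 and 3.20 without ADPKD replicate 1. In *Atp6v1g3* it was 1.71 without ADPKD replicate 2 and 2.76 without ADPKD replicate 1. The ubiquitous *Atp6v1g1* rose by 1.64 (SE 0.14, adjusted p = 0.000156 in limma) and *Atp6v0d1* by 1.54 (SE 0.15, adjusted p = 0.000262 in limma). *Atp6v1b2*, at 0.36 (SE 0.15, adjusted p = 0.0740 in limma), and *Atp6v1c1*, at 0.55 (SE 0.16, adjusted p = 0.0204 in limma), were not called, the latter for its size. Scaled by median of ratios, both passed, at 0.67 and 0.85.

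The a subunits fell together. *Atp6v0a4* changed by -3.45 (SE 0.17, adjusted p = 3.71e-05 in limma) and *Atp6v0a1* by -2.06 (SE 0.15, adjusted p = 9.41e-05 in limma). The levels of *Atp6v0a4* corresponded to 67 and 82 reads in the ADPKD+MMPP libraries and to 4573 and 3410 reads in the ADPKD libraries. *Atp6v1c2* changed by -1.12 (SE 0.41, adjusted p = 0.0485 in limma), on 29 and 16 reads in ADPKD+MMPP. Its call was lost when either WT library was left out, and also without ADPKD+MMPP replicate 1 (log2 fold change -1.30), without ADPKD+MMPP replicate 2 (-0.95) and without ADPKD replicate 1 (-0.47). The log2 fold change was -1.78 without ADPKD replicate 2.

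Over all genes, this comparison moved with how far the transcripts of a gene share its exons. The part of its exon bases held by a single annotated transcript was 19.1% for *Atp6v1c2*, 31.5% for *Atp6v0a4*, 34.1% for *Atp6v0a1*, 63.3% for *Atp6v1c1*, 69.0% for *Atp6v1b1* and 76.6% for *Atp6v1b2*. It was 81.3% for *Atp6v0d1*, 92.7% for *Atp6v0d2* and 100% for *Atp6v1g3* and *Atp6v1g1*, which have 1 annotated transcript each. The 3 subunits that fell were thus those with the lowest shares, and the 5 that rose had shares from 69.0% up. Over the tested protein-coding genes the median log2 fold change from ADPKD to ADPKD+MMPP went from -1.61 in the 1749 genes with a share up to 20% to 1.05 in the 2708 genes with a share above 80%. From WT to ADPKD the medians in the same 5 ranges lay between -0.02 and 0.06. When each library was centred within ranges of this share, the log2 fold change from ADPKD to ADPKD+MMPP was 2.09 for *Atp6v1b1*, 1.19 for *Atp6v1g3*, 0.78 for *Atp6v0d2*, -2.07 for *Atp6v0a4*, 0.73 for *Atp6v0d1* and -0.67 for *Atp6v0a1*, all still called. For *Atp6v1g1* it was 0.47 and under the fold threshold, and for *Atp6v1c2* it turned to 0.65 and was not called.

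**Figure D4:**
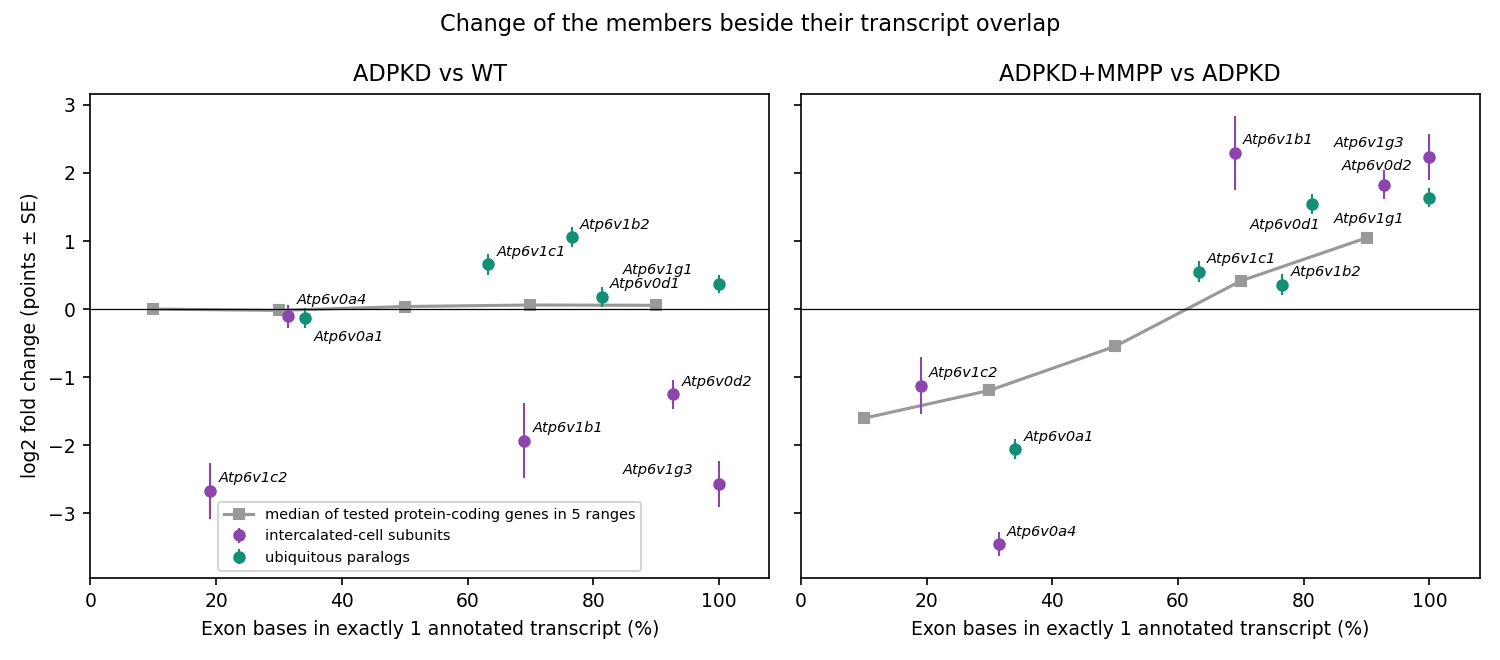
Log2 fold change (points with SE) of the 10 subunits against the share of their exon bases in exactly 1 annotated transcript (percent), with grey squares for the median of all tested protein-coding genes in 5 ranges of that share. From ADPKD to ADPKD+MMPP the squares climb from -1.61 to 1.05, with *Atp6v0a4* and *Atp6v0a1* below them and *Atp6v1b1* above, while from WT to ADPKD they stay between -0.02 and 0.06.

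Within the pairs, the B ratio changed by 1.94 (SE 0.79) from ADPKD to ADPKD+MMPP, the G ratio by 0.60 (SE 0.45), the a ratio by -1.40 (SE 0.17) and the C ratio by -1.67 (SE 0.52), each without overlap and with an exact permutation p of 0.333. The d ratio changed by 0.28 (SE 0.45), with overlap and an exact permutation p of 1. The median over the 5 pairs was 0.28, with 3 pairs higher and 2 lower, and it turned to -0.16 without ADPKD replicate 1. The paralogs of the B, a, d and G pairs are closer to each other in their shares of exon bases in 1 transcript, whereas those of the C pair differ, at 19.1% and 63.3%. *Atp6v1g3* and *Atp6v0d2* rose in FPKM while their shares of the pair stayed below those of WT, since *Atp6v1g1* and *Atp6v0d1* rose as well. The a pair summed to 36.2 ± 4.76 FPKM in ADPKD and to 3.38 ± 0.680 FPKM with MMPP (SD, n = 2). The G pair summed to 87.8 ± 10.8 FPKM in ADPKD and to 288 ± 8.53 FPKM with MMPP (SD, n = 2).

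In the same comparison, 8 of the 12 intercalated markers rose and 2 fell, beside 27.9% and 43.0% of all tested genes. Their median log2 fold change from ADPKD to ADPKD+MMPP was 1.997. *Foxi1* reached 23.1 and 22.9 FPKM, above every WT library, and *Slc26a4* reached 45.3 and 45.0 FPKM, below every WT library. *Slc4a1* had 11.3 and 12.7 FPKM, also below WT. *Slc4a9*, the anion exchanger AE4 of base-secreting cells, had 6.90 and 5.64 FPKM beside 12.7 and 6.60 FPKM in ADPKD and 51.2 and 57.2 FPKM in WT. The markers that fell were *Kit* and *Adgrf5*. The 8 markers that rose had 55.5% to 100% of their exon bases in a single transcript, and the 4 that did not rise had 15.6% to 43.1%, so their directions, like those of the subunits, moved with transcript overlap.

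The third comparison set ADPKD+MMPP beside WT and shares its libraries with both comparisons above. None of the intercalated-cell forms was called higher and 2 were called lower. These were *Atp6v1c2*, with a log2 fold change of -3.79 (SE 0.41, adjusted p = 0.000379 in limma), and *Atp6v0a4*, with -3.56. *Atp6v1b1* was at 0.37 (SE 0.55, adjusted p = 0.557 in limma), and at -0.023 with libraries scaled to a common sum. *Atp6v1g3* was at -0.34 (SE 0.33, adjusted p = 0.381 in limma) and *Atp6v0d2* at 0.57 (SE 0.21, adjusted p = 0.0465 in limma). The last was under the fold threshold on the log2(FPKM + 1) scale, but 1.51-fold in mean FPKM. In FPKM as deposited, both ADPKD+MMPP libraries were above WT for *Atp6v1b1* and *Atp6v0d2* and below WT for *Atp6v1g3*. All 5 ubiquitous forms were called, 4 of them higher, with log2 fold changes of 2.01 for *Atp6v1g1*, 1.72 for *Atp6v0d1*, 1.42 for *Atp6v1b2* and 1.21 for *Atp6v1c1*, and *Atp6v0a1* was lower at -2.19. Of all tested genes 73.9% were called, 30.1% higher and 43.8% lower, and 91.9% did not overlap. The medians were -0.34 for the intercalated-cell forms, 1.42 for the ubiquitous forms and -0.36 for all tested genes. After centring by transcript overlap *Atp6v1g3* (-1.51) and *Atp6v0d2* (-0.60) were called lower, the latter with its direction turned. The ratio of intercalated-cell form to paralog was lower than in WT in all 5 pairs, from -1.05 (SE 0.19) for B to -5.00 (SE 0.20) for C, each with an exact permutation p of 0.333.

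**Figure D5:**
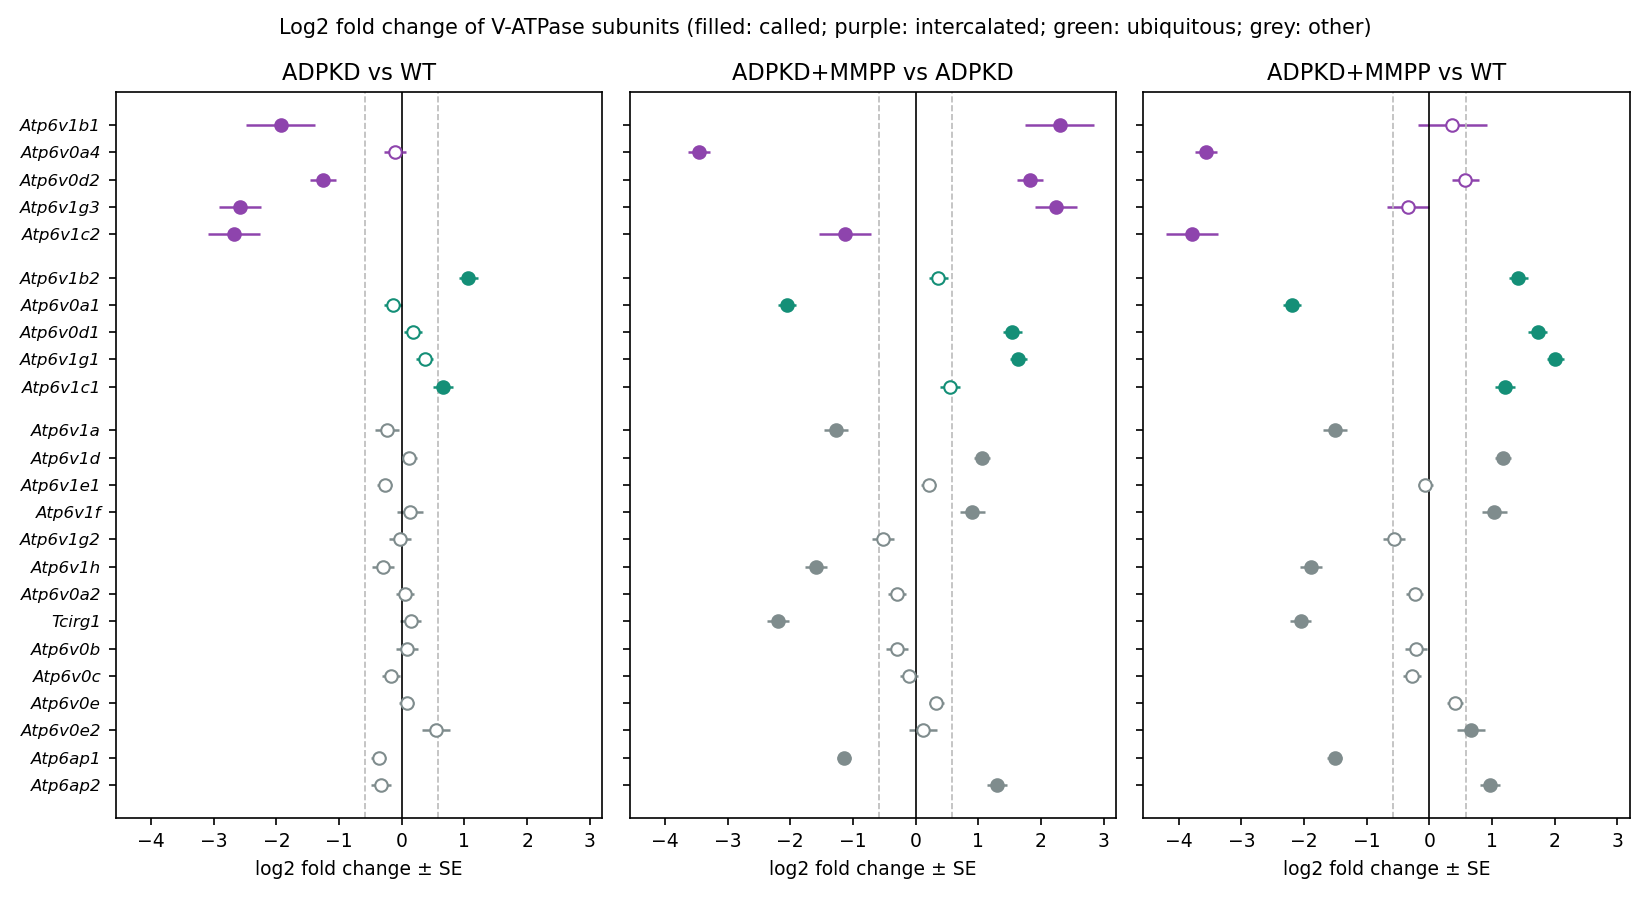
Log2 fold change with SE of the intercalated-cell forms (purple), the ubiquitous paralogs (green) and the 14 other tested subunits and accessory proteins (grey) in the 3 comparisons. Filled points were called, dashed lines mark the fold threshold, and all grey points are open between WT and ADPKD, whereas 7 of 14 are filled between ADPKD and ADPKD+MMPP.

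The pump has further subunits and accessory proteins outside these pairs, some of them other forms of subunits a and G. Of 16 further subunit and accessory genes, 14 passed the filter, and *Atp6v1e2* and *Atp6ap1l* did not. Between WT and ADPKD limma called none of the 14, beside 26.7% of all tested genes. Of the 14, 1 had an unadjusted P under 0.05 in limma, and their median log2 fold change was 0.01. *Atp6v1a*, the catalytic A subunit that pairs with either B subunit, had 49.98 and 50.4 FPKM in WT and 51.3 and 35.1 FPKM in ADPKD. From ADPKD to ADPKD+MMPP 3 rose and 4 fell, with a median of -0.20, beside 27.9% of all tested genes called higher and 43.0% called lower. *Atp6ap2*, the prorenin receptor, rose by 1.30, *Atp6v1d* of the central shaft by 1.06 and *Atp6v1f* by 0.90. *Tcirg1*, the a3 subunit of lysosomes and osteoclasts, fell by 2.20, *Atp6v1h* by 1.59 and *Atp6v1a* by 1.27 on the log2 scale, and the last had 17.2 and 16.8 FPKM in ADPKD+MMPP. The share of exon bases in 1 transcript was 36.2% for *Tcirg1* and 33.6% for *Atp6v1a* but 80.4% for *Atp6v1h*. Against WT, 4 of the 14 were higher and 4 lower in ADPKD+MMPP, beside 30.1% and 43.8% of all tested genes.

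Genes for assembly and regulation of the pump were counted in the same way. Of 12 such genes 11 were tested, the symbol *Tldc1* having no match. From WT to ADPKD 2 fell and none rose, beside 12.5% of all tested genes called lower and 14.2% called higher. *Tldc2* had 21.1 and 23.9 FPKM in WT, 4.25 and 0.243 FPKM in ADPKD, and 1.06 and 0.286 FPKM in ADPKD+MMPP. Its log2 fold change from WT to ADPKD was -3.20, and that of *Dmxl1*, part of the RAVE-like assembly complex, was -0.77. From ADPKD to ADPKD+MMPP 1 rose and 8 fell, with a median log2 fold change of -1.35, and against WT 1 was higher and 9 lower, beside the 43.0% and 43.8% of all tested genes called lower. The 8 that fell had 8.23% to 49.9% of their exon bases in a single transcript. *Tmem199*, which rose, had 36.6%, within that range, and *Tldc2* and *Ccdc115*, which were not called, had 5.46% and 58.1%. Over all tested protein-coding genes the medians of the 3 ranges up to 60% were -1.61, -1.20 and -0.55. In a list of 19 lysosomal genes and their regulators, targets of the factor TFEB among them, 5 rose and none fell from WT to ADPKD. Over all tested genes 14.2% were called higher and 12.5% lower. The 5 that rose included the cathepsins *Ctsd* (1.73) and *Ctsb* (0.996), *Naglu* (0.61) and *Lamp2* (0.60), each as a log2 fold change. From ADPKD to ADPKD+MMPP 8 of the 19 rose and 10 fell, beside 27.9% and 43.0% of all tested genes. Against WT 7 were higher and 9 lower, beside 30.1% and 43.8%.

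Among 14852 tested genes that are no members, the 5 whose centred log2(FPKM + 1) lay nearest to the mean profile of the intercalated-cell forms over the 6 libraries were *Ifi203-ps*, *Pip4k2a*, *Akr1c19*, *Cwh43* and *Hspa12a*. The Euclidean distances ran from 0.162 for *Ifi203-ps* to 0.341 for *Hspa12a*, and Pearson's r over 6 libraries from 0.990 to 0.997. *Pip4k2a*, a phosphatidylinositol phosphate kinase, had 40.9 and 37.9 FPKM in WT, 13.2 and 8.496 FPKM in ADPKD, and 14.9 and 15.7 FPKM in ADPKD+MMPP. The mean profile it follows is high in WT and lower in both other groups, and it averages forms that rose and forms that fell with MMPP. The points share libraries, depth and transcript overlap, so these values are a description.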

How the data were processed

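RNA-seq covered DBA-positive kidney cells with 2 libraries in each of 3 groups, grouped by the labels. The authors aligned reads to GRCm38 with HISAT2 2.1.0, counted them with featureCounts 1.6.0 and deposited FPKM per gene. The annotation release and the way FPKM was made are not given in the sources used here. Gene positions, exon lengths and transcripts came from GENCODE vM21, in which 53186 symbols matched 1 gene. Read numbers were recovered as steps of FPKM times exon length (tolerance 0.02 reads, up to 20 reads), and between 98.2% and 98.9% of low values came out whole. With 2 libraries per group, their spread sets the precision.

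Genes with at least 1 FPKM in at least 2 libraries were tested with limma 3.58.1 in R 4.3.3 on log2(FPKM + 1), in one fit over 6 libraries, with Benjamini-Hochberg adjusted p over 14862 genes. Calls used the thresholds of the study, a fold change of 1.5 and unadjusted P under 0.05. Ratios within pairs, with 1 FPKM added to each form, were compared by exact permutation in scipy 1.17.1. Scripts were tested on simulated data. Alternatives covered pseudocount, filter, scaling, spread, thresholds, replicate block, transcript overlap (20 ranges, protein-coding genes) and leaving out each library.

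The members, lists and tests were chosen with earlier results of these data known. Named were the 10 members, *Pkd1*, up to 3 called genes per direction, comparison and pathway list, the first 4 markers of each list, and the 5 genes nearest in profile. *Kit*, *Rhcg*, *Adgrf5*, *Acp5*, *Ctsk*, *Ocstamp*, *Dcstamp*, *Itgam*, *Ptprc*, *Aqp1*, *Ccdc115*, *Lamp2*, genes that overlap a member and genes missing from a table were named after their values were seen, or to complete a count.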

Additional observations from a re-analysis of the deposited data

How the results depend on the processing

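Between WT and ADPKD, 3970 genes were called, and 2034 with a pseudocount of 5, 2583 with a filter of at least 5 FPKM and 1951 at a fold change of 2 or more. The count of intercalated-cell forms called stayed at 3 or 4 under every alternative, and that of ubiquitous forms, 2, fell to 1 with a pseudocount of 5, a common sum or a fold change of 2 or more, and ranged from 1 to 2 when each library was left out. The median change of the paralog ratio, -2.94, was -2.35 with a pseudocount of 5 and ranged from -3.39 (without ADPKD replicate 1) to -2.20 (without ADPKD replicate 2). *Atp6v0a4* ranged from -0.29 (without ADPKD replicate 1) to 0.074 (without ADPKD replicate 2). From ADPKD to ADPKD+MMPP, 5 ubiquitous forms instead of 3 were called by median of ratios, the median change of the ratio, 0.28, was -0.0063 with a pseudocount of 5 and ranged from -0.16 (without ADPKD replicate 1) to 0.34, and centring by transcript overlap turned *Atp6v1b2* to -0.058 and *Atp6v1c2* to 0.65. Against WT, this centring gave 4 intercalated-cell forms instead of 2 and turned *Atp6v0d2* to -0.60, and *Atp6v1b1* was at -0.023 with a common sum and -0.022 after quantile normalization. The cause was not tested, except that fewer genes are tested with a higher filter. Replicate numbers did not pair the libraries (correlation of deviations 0.13, -0.0080 and 0.014 between groups), and with the replicate block 4055, 10595 and 11038 genes were called beside 3970, 10540 and 10984, with the same number of members in each comparison. Where 1 library was left out, its group had 1 library, taken to vary like the others. Depth limits *Atp6v1c2* in ADPKD+MMPP most, at 29 and 16 reads.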
